A study of Mus musculus with 96 samples.

Results

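Histone genes encode the proteins around which nuclear DNA is wound. They were taken by gene name, as the rows named for the H1, H2A, H2B, H3 and H4 families without a hyphen, which gave 85 of the 40202 genes listed in each file. Names split them into 67 replication-dependent genes, 6 variant genes (H1f0, H2ax, H2az1, H2az2, H3f3a and H3f3b) and 12 others, which are H2aj, H1f10 and genes best known from germ cells. Each library came from 1 cell of the mouse lung line C10, prepared by nanoSPLITS, in which the contents of 1 cell are split for RNA and protein measurement. There were 48 libraries of untreated cells (control) and 48 of cells given RO-3306, sold as an inhibitor of the mitotic kinase CDK1, at a labelled 10 nM for 36 h. That dose lies below those commonly used with this compound, and the labels do not settle whether its unit is right. No label names an allele, a clone, a passage or a culture, so each treatment was taken as 1 sample and no p-value was computed. The comparison asks how histone transcripts differed between the treatments.

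Cells with at least 50000 counts and 1000 genes were kept, which left 29 control and 37 RO-3306 cells. Their totals ran from 59979 to 6457215 counts in control and from 295005 to 5321880 in RO-3306. Titles carry a letter, A to D, in both groups. What it stands for is not given, and the lettered sets served only to show whether a difference had 1 sign throughout. At 639000 reads per cell, the equal depth used below, 25 control and 34 RO-3306 cells remained, with a median of 4551 and 5957.5 genes. Mitochondrial genes took a median of 3.40% and 4.42% of counts. The label alveolar type II was little borne out by the transcripts. Of 8 markers of that type, 5 were at 0 in every kept cell. Of the rest, 1 reached 5 CPM (counts scaled to a library or group total of 1000000). These markers summed to 9.61 CPM over control cells and 5.40 CPM over treated ones. At least 1 of them was detected in 13 of 29 control cells and 16 of 37 treated cells. No epithelial marker of 6 reached 5 CPM, and all 7 mesenchymal markers did. The 3 T and B cell markers were at 0, and the sum of 8 macrophage markers was 57.6 and 61.2 CPM. The mesenchymal sum was 5594 CPM in control cells and 2531 CPM in treated ones, and its part in the histone results was not tested.

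Replication-dependent histone genes lie in clusters, lack introns and are expressed in S phase, when new DNA must be packed. Their mRNAs end in a short stem-loop, bound by the protein SLBP, in place of a poly(A) tail. The variant genes are expressed outside S phase as well, and their mRNAs are polyadenylated, with H2ax known to make both forms. SMART-seq starts cDNA synthesis from an oligo(dT) primer, so a tail-less mRNA can be copied only where a tail or a run of A is present. The values below therefore do not measure the whole pool of replication-dependent mRNA.

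The stem-loop is the end of the tail-less mRNAs, though a gene that holds it can also make a tailed form, as H2ax does. The promoter elements are those known from the clusters. Stem-loops and promoter elements are both shown before the values. The histone stem-loop, 6 paired bases around a loop of 4, was searched on the transcribed strand of GENCODE M21 transcripts with 3 of its bases left free. Of the 85 members 82 had a transcript there. It was found in 42 of 66 replication-dependent members, in 1 of 6 variant members, H2ax, and in 0 of 10 others. Over all 55450 genes of that set, 47 (0.0848%) had it. Some members without it have short transcripts there, such as 381 bases for H2bc13, 393 for H2ac13 and 411 for H3c10. These may stop before the place of the loop, so a miss does not show that a gene lacks it. Longer transcripts without a match were also found, such as 1156 bases for H2bc4, described below, and 2620 for H2bc21. In the lines below capitals mark the stem, and 5 bases are given on each side.
H2ac23: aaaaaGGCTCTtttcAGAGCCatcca
H2ac11: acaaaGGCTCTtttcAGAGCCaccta
H2ac8: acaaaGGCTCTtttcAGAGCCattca
H2bc12: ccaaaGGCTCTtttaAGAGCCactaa
H1f4: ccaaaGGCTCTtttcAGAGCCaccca
H3c3: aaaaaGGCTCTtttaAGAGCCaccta
H4c4: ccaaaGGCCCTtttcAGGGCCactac
H2ax: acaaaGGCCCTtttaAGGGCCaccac
The form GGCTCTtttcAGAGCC was found in 26 replication-dependent members and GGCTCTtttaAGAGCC in 6, among them H2bc12 and H3c3. The form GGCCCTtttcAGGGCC was found in 7 members, all of them H4 genes. Less common were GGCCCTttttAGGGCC in 2 members and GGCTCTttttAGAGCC in 1. In 18 replication-dependent members the loop lay within 50 bases of the annotated transcript end. In 21 it lay over 100 bases before it. Counts were made over whole gene spans of a different annotation.

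Promoter windows of 250 bases before the start came from RefSeq on GRCm38.p6, and 76 of the 85 members matched. Each motif was searched on both strands, and none of these motifs contains another. CCAAT, the box bound by NF-Y, was found in 50 of 61 replication-dependent members, against 37.5% of all 27025 genes. At least 2 copies were found in 68.9% of those members and in 11.5% of all genes. TATAAA was found in 47.5% and 14.3%. The octamer ATTTGCAT, bound by the POU factor Oct-1, was found in 7 of 18 H2A and 7 of 15 H2B replication-dependent members and in no such H1, H3 or H4 member, against 1.81% of all genes. The H1 box AAACACA was found in 5 of 6 replication-dependent H1 members, against 7.204% of all genes. Among replication-dependent H4 members CCAAT was found in 3 of 12. Variant members held it in 4 of 5. The last 150 bases before the start are given for members that the results below turn on, with these motifs in capitals.
H2ac11 (chr13:22042950-22043099, minus strand): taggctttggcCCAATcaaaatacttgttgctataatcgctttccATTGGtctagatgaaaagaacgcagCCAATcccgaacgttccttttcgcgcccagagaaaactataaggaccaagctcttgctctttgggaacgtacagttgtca
H2bc12 (chr13:22035671-22035820, plus strand): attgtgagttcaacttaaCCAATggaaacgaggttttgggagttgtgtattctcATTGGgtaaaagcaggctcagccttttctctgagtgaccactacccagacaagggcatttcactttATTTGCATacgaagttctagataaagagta
H1f4 (chr13:23622559-23622708, minus strand): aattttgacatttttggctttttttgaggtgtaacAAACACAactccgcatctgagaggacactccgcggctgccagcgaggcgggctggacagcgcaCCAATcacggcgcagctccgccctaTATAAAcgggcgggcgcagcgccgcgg
H3c3 (chr13:23745522-23745671, minus strand): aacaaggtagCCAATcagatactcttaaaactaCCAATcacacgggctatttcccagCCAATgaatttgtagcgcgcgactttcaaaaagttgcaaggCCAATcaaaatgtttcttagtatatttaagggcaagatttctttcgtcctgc
H4c4 (chr13:23581418-23581567, plus strand): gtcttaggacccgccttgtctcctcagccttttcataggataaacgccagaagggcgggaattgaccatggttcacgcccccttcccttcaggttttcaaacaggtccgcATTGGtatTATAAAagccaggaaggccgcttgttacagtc
H3f3b (chr11:116024505-116024654, minus strand): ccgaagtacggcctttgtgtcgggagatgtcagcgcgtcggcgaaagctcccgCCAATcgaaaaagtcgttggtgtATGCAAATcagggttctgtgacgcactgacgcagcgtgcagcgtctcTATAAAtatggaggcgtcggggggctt
H1f0 (chr15:79028062-79028211, plus strand): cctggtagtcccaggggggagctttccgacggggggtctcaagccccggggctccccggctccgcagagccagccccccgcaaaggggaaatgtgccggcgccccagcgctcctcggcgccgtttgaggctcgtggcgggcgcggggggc
H1f0 held none of the motifs in its 250 bases, whereas H3f3b held the octamer, the CCAAT box and the TATA box. A match describes the letters of the window and is no evidence of binding.

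Replication-dependent transcripts were lower in RO-3306 cells. Over the 67 genes, control cells summed to 319 CPM (exact Poisson 95% interval 315 to 323) and RO-3306 cells to 114 CPM (111 to 116), a ratio of 0.356 (0.348 to 0.365) and a log2 ratio of -1.48. Log2 ratios here are of RO-3306 over control with 1 CPM added to both, which understates differences of low genes. These intervals, like all below, cover counting error only, and the reads carry no molecular identifiers, so PCR copies are included. In sets A to D the sum went from 316 to 70.5 CPM, from 351 to 101 CPM, from 310 to 148 CPM and from 228 to 113 CPM. It was thus lower in all 4 sets, with log2 ratios of -2.15, -1.78, -1.06 and -1.005. Per cell, control sums were lowest at 33.3, had a median of 293 and were highest at 792 CPM. RO-3306 sums ran from 0, with a median of 75.005, up to 601 CPM. The groups overlapped widely, yet 34 of 37 RO-3306 cells lay below the control median. A sum under 100 CPM was seen in 5 of 29 control and 20 of 37 RO-3306 cells, and a sum over 500 CPM in 5 and 2. RO-3306 cells A11 and B3 had no such count, where 3 counts would be 5.82 and 10.2 CPM.

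**Figure D1:**
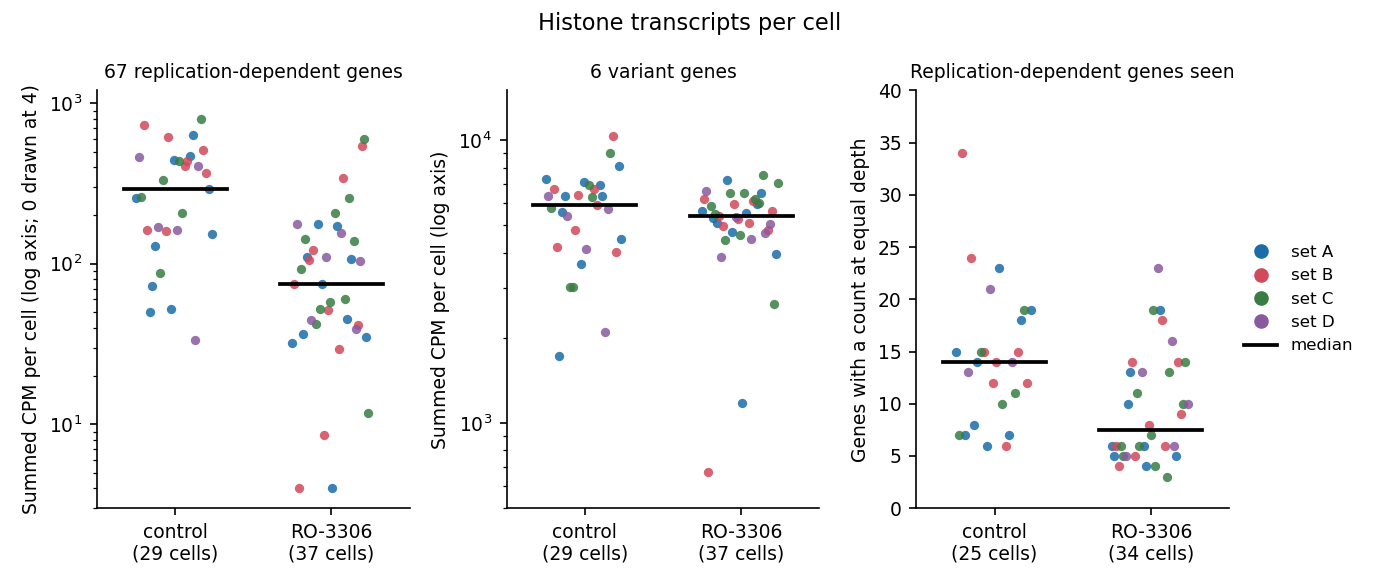
Each point is 1 cell, coloured by its lettered set, with the group median as a bar. The left and middle panels give summed CPM on log axes for the 67 replication-dependent and the 6 variant genes, and the right panel the number of replication-dependent genes with a count at 639000 reads. The replication-dependent median was 293 CPM in control cells and 75.005 CPM in treated cells, while the variant medians were 5920 and 5412 CPM.

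The typical RO-3306 cell showed fewer of these genes. A control cell had a count for 2 to 53 of the 67 genes, with a median of 23, and an RO-3306 cell for 0 to 39, with a median of 15. Any value above 0 was taken as a count there, fractions of a split read included. At equal depth the medians were 14 (quartiles 10 and 18) and 7.5 (quartiles 5.25 and 13). Counts were rounded before thinning, and how much of the fall to equal depth comes from rounding was not tested. Cells of the RO-3306 group held more genes overall at that depth, so the direction was opposite to that of all genes. Mitochondrial share and gene number both moved with the treatment, and their part in the histone result was not tested. Without the RO-3306 cell over 20% mitochondrial counts, the log2 ratio of the sum was again -1.48.

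All 5 histone types were lower in the sums. H1 genes, the linker histones, went from 14.99 CPM to 2.28 CPM (ratio 0.152, 0.131 to 0.177). They were detected in 9 of 29 control and 11 of 37 treated cells, so few cells carry that value. H2A genes went from 202 to 65.7 CPM (0.325, 0.316 to 0.335) and H2B genes from 50.3 to 20.2 CPM (0.402, 0.380 to 0.425). H3 genes went from 18.3 to 9.05 CPM (0.494, 0.452 to 0.540) and H4 genes from 33.4 to 16.3 CPM (0.490, 0.458 to 0.523). H2A, H2B and H3 sums were lower in all 4 sets, but some sizes moved. The H1 sum was lower in sets A, B and C, and set D gives it no direction. Treated cells of set D held 0.0454 CPM of H1 transcripts, against 0.135 CPM in untreated ones. The log2 ratio there, -0.12, was smaller in size than the shift of 0.21 that TMM scaling brings. The H1 log2 ratio was -2.29, and -1.68 as the mean over cells. At equal depth the H2B log2 ratio was -0.64 in place of -1.27. Equal depth leaves out control cell C3, which held 14.4% of the control H2B counts. As the mean over cells, with C3 kept, the H2B value was -1.17. The H3 log2 ratio was -0.94, but -0.63 at equal depth and -0.35 as the mean over cells. The H4 sum was higher in set C, at 16.04 CPM in control against 26.8 CPM, and its log2 ratio of -0.99 became -0.18 without set B and -1.59 without set C.

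Of the 67 genes, 59 had a count in a kept cell. The sum was lower in RO-3306 for 44 of these and higher for 15. Of all 18561 genes with a count 53.2% were lower and 46.8% higher. Of the 8 genes at 0, H2bu2, H2aw, H2bc1 and H2ac1 lie wholly inside the spans of other genes, where reads are left uncounted by default, and H2bc21, H4c14, H1f1 and H1f6 do not. Averaged over both groups, 5 CPM was reached by 8 genes (H1f4, H2ac8, H2ac11, H2ac23, H2ac24, H2bc4, H3c3 and H4c4). The other 51 had at most 8.60 CPM in either group. All 8 were lower in RO-3306, 7 of them at least 2-fold, and 4 at least 2-fold with the same sign in every set. Of the 5672 genes of 5 to 50 CPM, 61.4% were lower, 30.7% at least 2-fold, and 5.52% were so with 1 sign in all sets. H1f4, H2ac8 and H3c3 were under 5 CPM in RO-3306 and passed through control alone, so these counts describe the genes and support nothing. Their median log2 ratio was -1.55, beside -0.34 over those 5672 genes, and it was -0.51 over all 59 genes with a count.

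H2ac23 and H2ac24 encode H2A and held the most counts of the replication-dependent genes in both groups. H2ac23 (GRCm39 chromosome 13, 21994537 to 21995088, plus strand) had a lowest, median and highest level of 0, 63.4 and 212 CPM in control cells and of 0, 9.09 and 96.2 CPM in RO-3306 cells. H2ac24 (22017194 to 22017645, minus strand) had 0, 59.8 and 214 CPM in control and 0, 8.82 and 102 CPM in RO-3306. In each case 36 of 37 RO-3306 cells lay below the control median, and no RO-3306 cell lay above the control maximum. The summed level of H2ac23 was 69.3 CPM (67.3 to 71.4) and 19.5 CPM (18.6 to 20.4), a log2 ratio of -1.78, with -2.32, -2.24, -0.64 and -1.04 in sets A to D. That of H2ac24 was 67.5 and 18.5 CPM, a log2 ratio of -1.81. Both were lower in all 4 sets.

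A count was seen in more cells of RO-3306 than of control for H2ac23, in 35 of 37 against 23 of 29, although the level per cell was lower. At equal depth these numbers were 31 of 34 and 19 of 25. The 2 genes share most of their sequence: of the 150-base stretches of the H2ac23 transcript, 91.5% occur in another gene as well. Of the libraries that detected them, 96.6% and 98.3% held a fractional count, so a read was split between copies and the separate values are uncertain. Together they made 137 CPM in control cells and 37.97 CPM in treated cells. The 65 other replication-dependent genes went from 182 to 75.6 CPM, a log2 ratio of -1.26, a check added after the values were seen.

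H2ac11 and H2ac8 are further H2A genes of the same cluster. H2ac11 (chromosome 13, 22226648 to 22227119, minus strand) ran from 0 over a median of 28.9 to 67.4 CPM in control cells and from 0 over 4.88 to 47.3 CPM in RO-3306 cells. Its summed level was 27.9 CPM (26.6 to 29.2) and 10.6 CPM (9.95 to 11.3), a log2 ratio of -1.32, and it was lower in all 4 sets. Counts of H2ac11 were fractional in 96.7% of the libraries with a count. Of its 150-base stretches, 65.5% occur in other genes, H2ac23 and H2ac24 among them, so its value is not separate from theirs. H2ac8 (23754837 to 23755394, minus strand) had 9.24 and 4.55 CPM, a log2 ratio of -0.89. Its sets disagreed, since A and B gave -0.48 and -1.48 but C and D gave 1.89 and 2.05. Leaving out set B turned the log2 ratio to 0.18. The cell with the most H2ac8 was an RO-3306 cell, at 64.0 CPM, above the control maximum of 38.8 CPM.

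H2bc4 encodes H2B and has a gene span of 8624 bases (23868182 to 23876805, plus strand), longer than that of every other replication-dependent gene described here. Control cells ran from 0 over a median of 0.55 to 790 CPM, and RO-3306 cells from 0 over 0 to 345 CPM. The level was high in few cells: 3 cells held 54.9% of the control counts and 3 held 78.0% of the RO-3306 counts. Control cell C3 had 99.8% of its replication-dependent counts in this gene. The summed level was 30.02 CPM (28.7 to 31.4) and 13.8 CPM (13.02 to 14.5), a log2 ratio of -1.07. It was higher in RO-3306 in set B (0.53), and it was -0.42 without set C and -1.72 without set B. Cells thinned to equal depth, which leave out C3, the highest control cell, gave -0.59.

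H1f4 encodes a linker histone, H3c3 an H3 and H4c4 an H4 protein. H1f4 (23805760 to 23806541, minus strand) was seen in 7 of 29 control and 8 of 37 RO-3306 cells, and reached 98.3 and 37.8 CPM in the highest cells. The summed level stood at 10.5 CPM (9.71 to 11.3) and 1.49 CPM (1.25 to 1.76), a log2 ratio of -2.20, and set D had no count in either group. H3c3 (23929025 to 23929504, minus strand) was seen in 11 and 8 cells, with highest levels of 45.4 and 10.8 CPM. Its summed level was 9.79 CPM (9.04 to 10.6) and 1.51 CPM (1.27 to 1.78), a log2 ratio of -2.10, and it was lower in all 4 sets. For both genes most cells of either group had no count, so the sums rest on a minority of cells.

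H4c4 (23765551 to 23765952, plus strand) is the member of this set whose counts were least often fractional, in 10.5% of the libraries with a count, and its transcript had no stretch of 150 bases in common with another gene. It ran from 0 over 13.4 to 172 CPM in control cells and from 0 over 5.46 to 42.3 CPM in RO-3306 cells. The summed level was 23.3 CPM (22.2 to 24.5) and 10.4 CPM (9.75 to 11.1), a log2 ratio of -1.09. It was higher in RO-3306 in set C (1.13) and close in set D (0.08), and without set B the log2 ratio turned to 0.33. Its direction therefore rests on set B.

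Below 5 CPM, H2bc12, H2ac15 and H2ac6 were also at least 2-fold lower with 1 sign in all sets, as 3.53% of all genes with a count were. They were picked out after their values were seen. H2bc12 (22219991 to 22220490, plus strand) went from 8.60 CPM (7.91 to 9.34) to 0.157 CPM (0.0904 to 0.267), from 568 to 14.6 counts. It was seen in 19 of 29 and 10 of 37 cells, and at equal depth in 16 of 25 and 4 of 34. H2ac6 went from 6.70 to 1.76 CPM. H2bc12 and H2ac6 had fractional counts in over 90% of the libraries with a count (93.1% and 94.3%). H2ac15 had them in 22.2%, and its transcript shared no 150-base stretch with another gene. It went from 4.75 CPM to 0.695 CPM, a log2 ratio of -1.76 that was only -0.21 in set A. A count was seen in 10 of 29 and 8 of 37 cells, and 3 cells held 84.6% of the control counts.

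**Figure D2:**
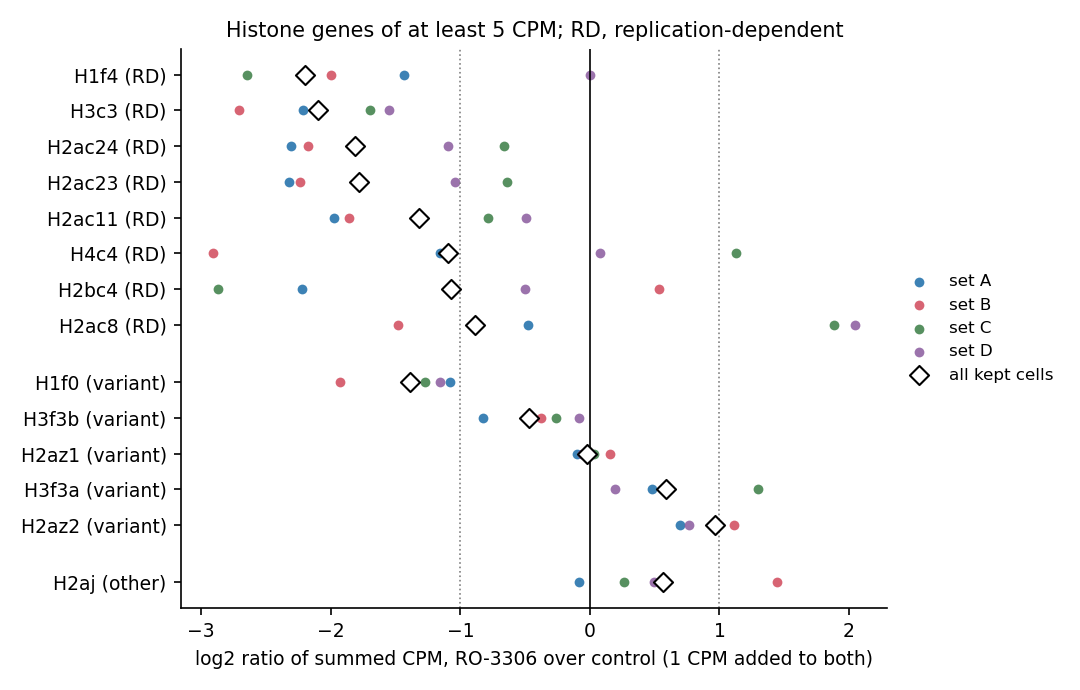
The x axis gives the log2 ratio of RO-3306 over control for the 14 histone genes that averaged 5 CPM or more. Diamonds stand for all kept cells, coloured points for the lettered sets and dotted lines for 2-fold. The 8 replication-dependent genes lie between -2.20 and -0.89, and the 5 variant genes between -1.39 and 0.96.

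The variant genes differed among themselves, and their sum hid this. Together they had 5657 CPM in control (5638 to 5675) and 5343 CPM in RO-3306 (5328 to 5357), a log2 ratio of -0.08 that was negative in set A alone (-0.30). Scaling by TMM raised every log2 ratio by up to 0.21, and by DESeq2 size factors by up to 0.24, which turns the sign of this sum. Of the 6 genes, H3f3a and H2az2 were higher in all 4 sets, H1f0 lower in all 4, H3f3b lower in all 4 except that either scaling turns set D, and H2az1 had mixed signs. Over the 9374 genes of at least 5 CPM, 13% were higher and 10.3% lower in all sets. The remaining gene, H2ax, lies wholly inside the span of Dpagt1, where reads are left uncounted, and was at 0 throughout, so these files do not show its level.

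H1f0 (GRCm39 chromosome 15, 78912412 to 78914704, plus strand) encodes the linker histone H1.0, known for cells that have stopped dividing or differentiated. Control cells ran from 0 over a median of 173 to 495 CPM, and RO-3306 cells from 0 over 69.6 to 290 CPM. Of 37 RO-3306 cells, 34 lay below the control median, though the ranges overlapped. The summed level was 206 CPM (203 to 210) and 78.2 CPM (76.4 to 79.97), a log2 ratio of -1.39. In sets A to D the log2 ratio was -1.08, -1.93, -1.27 and -1.16. It was past 2-fold, as 24.2% of all genes of at least 5 CPM were in that direction and 6.43% with 1 sign in all sets. Its transcript shared no 150-base stretch with another gene.

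H3f3a and H3f3b encode the same H3.3 protein, which replaces H3 outside replication, from 2 genes. H3f3a (chromosome 1, 180630125 to 180641170, minus strand) ran from 0 over a median of 577 to 1092 CPM in control cells and from 25.9 over 915 to 1983 CPM in RO-3306 cells, of which 28 lay above the control median. Over all cells the level was 559 CPM (553 to 565) and 841 CPM (835 to 847), a log2 ratio of 0.59. H3f3b (chromosome 11, 115912787 to 115921313, minus strand) ran from 300 over 2456 to 6176 CPM in control and from 125 over 2026 to 4280 CPM in RO-3306, where 30 cells lay below the control median. Its summed level was 2775 and 1999 CPM, a log2 ratio of -0.47. In sets A to D the log2 ratio was -0.83, -0.38, -0.26 and -0.08.

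The share of H3f3a in the counts of the pair does not depend on scaling. It was 16.8% (exact Clopper-Pearson 95% interval 16.6% to 16.9%) in control and 29.6% (29.4% to 29.8%) in RO-3306. In sets A to D it was 15.5%, 17.4%, 12.3% and 25.7% in control, and 31.1%, 29.02%, 29.3% and 29.6% in RO-3306. Each set was higher in RO-3306, and set D of the control stood closest to it. Per cell the share ran from 0% over a median of 19.03% to 38.2% in control and from 5.57% over 30% to 52.9% in RO-3306, so the cells overlapped. H3f3a counts were fractional in every library that had one, and those of H3f3b in 68.2%. The H3f3a sequence is shared in part with H3f3c and processed copies. How many reads of either gene were split was not measured.

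H2az1 and H2az2 encode the near-identical proteins H2A.Z.1 and H2A.Z.2, variants of H2A found at promoters. H2az1 (chromosome 3, 137570248 to 137572683, plus strand) ran from 559 over a median of 1902 to 5769 CPM in control cells and from 175 over 1700 to 2688 CPM in RO-3306 cells. Summed over cells it stood at 1765 CPM (1755 to 1776) and 1739 CPM (1731 to 1748), a log2 ratio of -0.02 that TMM turned to 0.19, so no direction is given. H2az2 (chromosome 11, 6377226 to 6394511, minus strand) ran from 0 over 320 to 1339 CPM in control and from 212 over 614 to 1353 CPM in RO-3306. Of the RO-3306 cells, 34 of 37 lay above the control median. Its summed level was 351 CPM (346 to 355) and 685 CPM (680 to 691), a log2 ratio of 0.96, with 0.70, 1.11, 0.98 and 0.77 in sets A to D. It passes 2-fold with TMM (1.17) and with DESeq2 size factors (1.199).

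The share of H2az2 in the counts of its pair was 16.6% (16.4% to 16.8%) in control and 28.3% (28.1% to 28.5%) in RO-3306. By set it was 15.6%, 16.6%, 19.5% and 16.8% in control, against 24.3%, 27.98%, 31.9% and 26.4% in RO-3306. The ranges of the 4 set values did not overlap. Per cell the median was 15.7% and 26.7%, and the highest cell of control had 42.3%. Leaving out single sets moved the difference between the groups from 11.7 to between 10.2 and 12.2 percentage points, and that of the H3.3 pair from 12.8 to between 11.5 and 13.8. Counts of H2az1 were fractional in 89.4% of the libraries with a count, and those of H2az2 in 35.4%. Of the 150-base stretches of the H2az1 transcript, 25.9% occur in Gm8203 as well, and H2az2 had no shared stretch. How many reads of either gene were split was not measured.

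**Figure D3:**
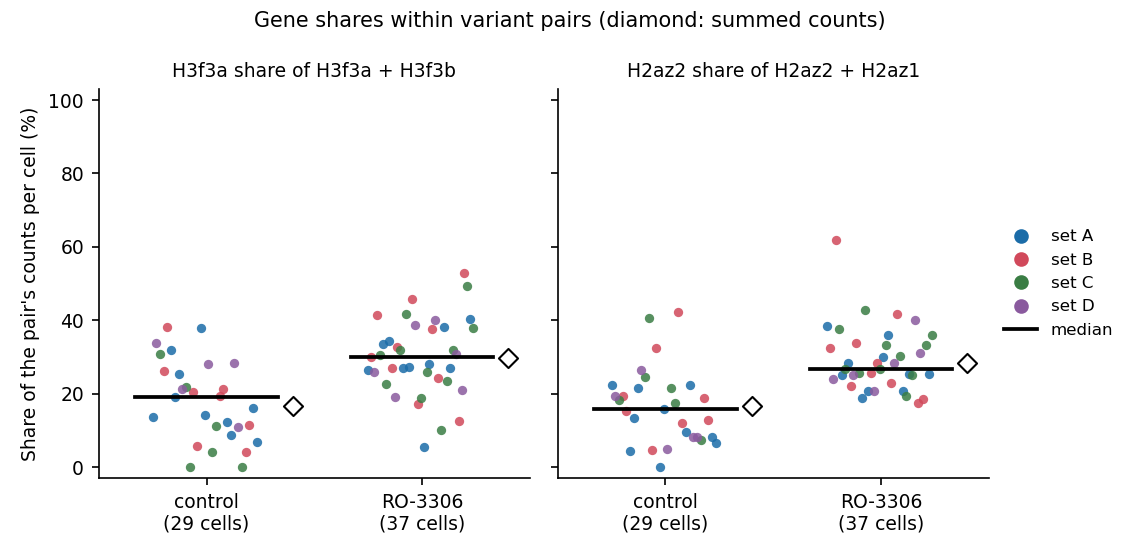
Each point is the share, in percent, of H3f3a (left) or H2az2 (right) in the counts of its pair in 1 cell, coloured by set, with bars at the group medians and diamonds for the summed counts. The summed shares were 16.8% and 29.6% for H3f3a and 16.6% and 28.3% for H2az2.

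H2aj, an H2A gene on chromosome 6 (136785246 to 136787072, plus strand) outside the clusters, was the only other member with a count. It was seen in every kept cell, from 50.02 over a median of 229 to 843 CPM in control and from 105 over 323 to 786 CPM in RO-3306. The summed level stood at 252 CPM (248 to 256) and 373 CPM (369 to 377), a log2 ratio of 0.56. It was slightly lower in set A (-0.08) and higher in sets B, C and D (1.44, 0.26 and 0.49). No stem-loop was found in its transcript. The other 11 genes of its group were at 0 in all 66 kept cells, and 4 of these lie wholly inside other gene spans.

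Genes that serve histone supply were set beside the members. The list holds 36 genes for stem-loop processing, storage and deposition, and 31 reached 5 CPM, of which 23 were lower and 8 higher in RO-3306, beside 59% and 41% of all genes of that level. The median log2 ratio was -0.62, beside -0.22 over those genes. At least 2-fold lower with 1 sign in all sets were 4 of the 31, and higher 0, against 6.43% and 7.23% of all genes of at least 5 CPM. They were Chaf1a, the large subunit of the CAF-1 complex that deposits H3 and H4 at replication forks, at 24.7 and 2.81 CPM (-2.75), Atrx, which helps to deposit H3.3, at 75.9 and 15.9 CPM (-2.19), Hjurp, the chaperone of the centromeric H3 variant, at 170 and 56.4 CPM (-1.58), and Anp32e, which removes H2A.Z, at 100.02 and 40.7 CPM (-1.28). Atrx was seen in 6 control and 9 RO-3306 cells, and its log2 ratio was -1.17 without set C and -5.23 without set D. Chaf1a gave -3.56 and Anp32e -0.98 without set C. Slbp, which binds the stem-loop, was named after its value was seen. It had 275 CPM in control cells and 140 CPM in treated cells, with a log2 ratio of -0.97 and a negative sign in every set.

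Among histone variants outside the naming rule, Cenpa, which marks centromeres, had 191 and 417 CPM. Its log2 ratio of 1.12 was positive in every set, opposite in sign to that of its chaperone Hjurp, and was 0.92 at equal depth and 0.80 without set A. Macroh2a1 had 229 and 121 CPM (-0.91, negative in every set). Macroh2a2 had 41.9 and 15.04 CPM (-1.42, but 4.50 in set C).

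Replication-dependent histones belong to S phase, so a list of 33 S phase genes was set beside them. Of these, 32 reached 5 CPM, and 27 were lower and 5 higher in RO-3306, beside 59% and 41% of all genes of that level. The median log2 ratio was -0.72, and 0.81 in set C, beside -0.22 over those genes. At least 2-fold lower with 1 sign in all sets were 4 of the 32, beside 6.43%. They were Mcm2 (139 and 61.4 CPM, -1.16), Mcm4 (202 and 86.8 CPM, -1.21) and Mcm6 (232 and 91.2 CPM, -1.34), subunits of the replicative helicase, and Cdc6 (36.8 and 6.20 CPM, -2.39), which loads it. Mcm2 falls short of 2-fold with TMM (-0.95), with DESeq2 size factors (-0.93) and without set D (-0.77). Mcm4 does so with DESeq2 size factors (-0.97), at equal depth (-0.98), as the mean over cells (-0.88), without set B (-0.98), without set D (-0.62) and barely with TMM (-0.997), and it gave -1.82 without set C. Cdc6 gave -3.42 without the highest cell of each group. The summed list had a log2 ratio of -0.61, negative in every set, beside -1.48 for the replication-dependent histones. The sum of the G2/M list had 4007 and 4404 CPM, but it was lower in set B (-0.26). Of its 20 genes, all of at least 5 CPM, 11 were lower and 9 higher in RO-3306. Their median log2 ratio was -0.15, so no direction is given for that list.

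Cell by cell, the relation of replication-dependent to S phase sums is given as a description. At equal depth Spearman's rho between them was 0.46 over 25 control cells and 0.04 over 34 RO-3306 cells. With the G2/M list it was 0.53 and -0.33, and with the summed variant genes 0.62 and 0.16. The points of each group share a treatment and 1 depth of reads, and whether the groups differ in rho was not tested. The 2 RO-3306 cells over 500 CPM, C7 and B1, had the lowest S phase sums of the 34, 728 and 767 CPM. They also had the lowest G2/M sums, 230 and 258 CPM. Their leading gene was H2bc4, with 42.4% and 64.0% of their replication-dependent counts. In the 4 control cells over 500 CPM other than C3, H2ac23, H2ac24 or H4c4 led, and H2A genes made 60.5% to 88.2% of the counts.

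**Figure D4:**
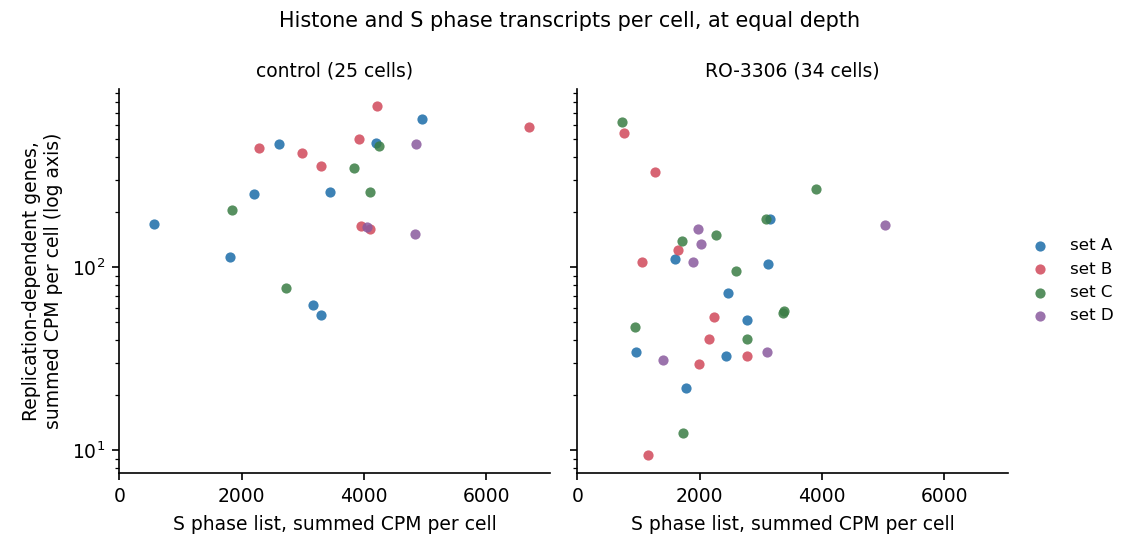
Each point is 1 cell at 639000 reads, with the summed CPM of the S phase list on the x axis and of the 67 replication-dependent genes on a log y axis, control on the left and RO-3306 on the right. Spearman's rho was 0.46 over 25 control cells and 0.04 over 34 RO-3306 cells, and RO-3306 cells C7 and B1 stand at the upper left of their panel.

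How reads were split bears on all single replication-dependent genes. Of 64 members with a count and a transcript, 11 had no 150-base stretch in common with another gene, and their counts were fractional in a median of 22.2% of the libraries with a count. For the rest the median was 92.3%. Over the 14 replication-dependent members with no shared stretch, with or without counts, the log2 ratio of the sum was -1.28, a check added after the values were seen. H4c4 had by far the most counts of these members, so this value is largely that of H4c4, whose direction rests on set B. Leaving out every gene fractional in over 10% of its libraries kept 4 replication-dependent genes and gave -2.55, a value carried by few cells. H1f5 had 198 counts in 4 control cells and 3 in RO-3306, H2bc18 had 127 and 1 with 99.2% of the former from control cell B5, H4f16 had 104 counts in 2 control cells and 0 in RO-3306, and H2ac21 had 0 and 22. H4c4, fractional in few libraries and with more counts, turned sign without set B. What read splitting contributed to the sum was not tested.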

How the data were processed

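The deposited files hold 1 table of expected counts per library, which the authors made with featureCounts 2.0.3 over RefSeq gene spans of GRCm39, per the file headers. The options recorded there split a read placed at several sites into fractions among them. No strand option and no option for overlapping genes is recorded, so by default strand is ignored and a read over 2 gene spans is left uncounted. FastQC and STAR are named, with no version used here, per the submitters' processing notes. Per the labels' protocols, libraries were prepared with SMART-seq v4 and sequenced as single reads of 150 nt.

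The counts of all kept cells of a treatment were added and scaled to a total of 1000000 (CPM). Log2 ratios are RO-3306 over control with a pseudocount of 1 CPM, except that intervals of ratios use the sums alone. Counts were rounded to whole numbers for exact 95% intervals, for thinning to 639000 reads (percentile 10 of the totals of kept cells) and for scaling factors (edgeR 4.0.16, DESeq2 1.42.0, R 4.3.3). A count was called fractional when over 1e-06 from a whole number. Members averaging 5 CPM are named, with those past 2-fold and of 1 sign in all 4 lettered sets among the lists. Equal-depth values leave out 4 control and 3 RO-3306 cells. No doublet caller was run. Identical values were found in 0 pairs of kept libraries. The scripts, in Python 3.11.15 with numpy 2.4.6, pandas 2.3.3, scipy 1.17.1 and matplotlib 3.10.9, were tested on simulated data. Members and lists were chosen with earlier results of these data known. The protein measurements were not analysed here.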

Additional observations from a re-analysis of the deposited data

Results flagged for a closer look

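Libraries under the limits on counts and genes were left out of every comparison, and variant histone counts appeared in them. The 11 RO-3306 libraries left out held 641 variant counts of 1162603 in all, which is 551 CPM (509 to 596), and 10 of the 11 had such a count. The 19 control libraries left out held 37 counts of 341166, which is 109 CPM (76.4 to 149), in 6 libraries. The intervals cover counting error only. Kept cells stood at 5343 and 5657 CPM. Replication-dependent counts in these libraries were 29.2 CPM (20.3 to 40.9) in RO-3306 and 7.15 CPM (0.710 to 21.2) in control, with overlapping intervals.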

How the results depend on the processing

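No paired analysis was possible because each cell was lysed for its own library and cells with the same letter and number in both groups share only a title. The replication-dependent sum (log2 ratio -1.48) was -1.27 with TMM scaling, -1.25 with DESeq2 size factors, -1.37 at equal depth, -1.42 as the mean over cells, -1.59 without the highest cell of each group and -1.71 to -1.34 without single lettered sets. It was -2.55 over the 4 genes rarely fractional, and -0.23 over every member but the variants, where H2aj is added. Chosen after seeing the data, it was -1.26 without H2ac23 and H2ac24 and -1.28 over members with no shared stretch, a value largely of H4c4. The median of the 8 replication-dependent genes (-1.55) was -1.34 with TMM, -1.31 with DESeq2, -1.13 with a pseudocount of 5 CPM, -1.82 to -1.50 without single sets, -1.32 over the 9 genes with H2aj added, -1.08 over 26 genes of at least 1 CPM and -0.51 over 59 genes with a count. The number at least 2-fold lower, 7 of 8, was 5 with either scaling, where H2bc4 and H4c4 fell short. The variant sum (-0.08) was 0.13 with TMM, 0.15 with DESeq2, -0.11 as the mean over cells, -0.059 without the highest cells and -0.14 to 0.039 without single sets. The variant median (-0.02) was 0.19, 0.21, -0.16, -0.0079 and -0.12 to 0.066 in the same order, and 0.011 at equal depth. H4c4 ran from -1.66 to 0.33 without single sets. Leaving out fractional genes left no variant gene and no replication-dependent gene of 5 CPM, so no value was had. The cause of these shifts was not tested. Depth limits genes under 5 CPM, most of which had no count in most cells.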

Other observations

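Neighbouring H2A and H2B genes of the clusters are often transcribed away from each other from 1 shared promoter region. Among the members there were 12 such pairs, with 163 to 280 bases between the genes, and 10 had counts in both. Both genes were lower in RO-3306 in 9 pairs. Taken singly, 44 of 59 replication-dependent genes and 53.2% of all genes with a count were lower. These are shares of single genes, and no share of other gene pairs was computed to set beside the 9. Most of the genes in the pairs lie under 5 CPM, and some log2 ratios were near 0, such as -0.088 for H2bc7. In the pair of H2ac8 and H2bc8 the log2 ratios were -0.89 and 0.88.

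The main clusters lie on 2 chromosomes. The 54 replication-dependent genes on chromosome 13 stood at 309 and 107 CPM in control and treated cells, a log2 ratio of -1.52 that was negative in every lettered set. The 10 on chromosome 3 stood at 7.97 and 6.10 CPM, a log2 ratio of -0.34 that has no settled direction. RO-3306 cell C7 held 51.0% of the treated counts, and without it, a check added after seeing the data, the log2 ratio was -1.15, beside -1.61 for chromosome 13. The chromosome 3 value was 0.37 at equal depth, 0.14 as the mean over cells, 0.18 without set B and -0.83 without set C. Whether the clusters differ in their ratio was not tested.

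Which gene led varied from cell to cell. H2ac23 or H2ac24 had the most replication-dependent counts in 14 of 29 control and 14 of 37 RO-3306 cells, and the leading genes numbered 9 and 14. The leading gene held a median of 28.6% and 31.5% of the counts. It held over 50% in 4 cells of each group.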
